A study of Homo sapiens with 4 samples.

Results

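The cells described here are unirradiated BEAS-2B cells, the control library of a study of gamma radiation. BEAS-2B is a line of human bronchial epithelial cells that was immortalized with a hybrid of adenovirus and SV40, and it grows as a dividing culture. Barcodes of the control library were taken as cells where they held at least 5000 unique molecular identifiers (UMIs, each standing for 1 captured mRNA molecule) and at most 10% of UMIs in mitochondrially encoded genes. Of 11111 control barcodes, 8998 (81.0%) met this rule, out of 68085 deposited barcodes in all 4 libraries. The other libraries hold the same line after 10 mGy, 100 mGy or 1 Gy from a caesium source, collected after a short culture. Each dose has 1 library and no replicate. The cells of a library share 1 culture and 1 preparation, so intervals are exact 95% intervals for counting error only, and no test between doses was made.

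Epithelial cells hold their shape with keratins, which form intermediate filaments in pairs such as KRT8 with KRT18, and join their neighbours through E-cadherin (CDH1) and desmosomes. Mesenchymal cells instead use vimentin (VIM), N-cadherin (CDH2) and a secreted matrix of fibronectin and collagens. In a dividing culture, histone genes are expressed in S phase and the genes of spindle and mitosis in G2 and M phase, so cells at different stages carry different sets of mRNA.

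The selected control cells held 208270532 UMIs, 97.9% of all UMIs of that library. The median cell had 21702 UMIs, with a range from 5073 to 90186, and 5678 detected genes. Mitochondrially encoded genes took 5.97% of the UMIs of the median cell and ribosomal protein genes 14.1% of all UMIs. The same rule kept 12515, 14245 and 11455 cells at 10 mGy, 100 mGy and 1 Gy, with medians of 19987, 15224 and 16469 UMIs. Ribosomal protein genes took 20.3% of UMIs at 10 mGy and 22.2% at 100 mGy, against 14.1% at 1 Gy. Between 31 and 38 barcode sequences of selected control cells also occurred among the selected cells of each other library. Around the limit on UMIs, the 74 barcodes just inside it (median 5418 UMIs) had 3140 VIM UMIs per 1000000 and 770.3 of KRT7, and the 99 just outside it (median 4441 UMIs) had 3129 and 692. KRT8 had 336 just inside and 292 just outside, and KRT18 291 and 195. Around the limit on mitochondrially encoded genes, the 36 barcodes just inside had 2804 and 607, and the 14 just outside 2818 and 559, with KRT8 at 248 and 256 and KRT18 at 227 and 170.5.

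The highest levels in the control cells belonged to genes of respiration, the cytoskeleton, translation and iron storage, and to nuclear noncoding RNA. Levels are given as counts per 1000000 UMIs over all cells (CPM), which is not divided by gene length, since 1 UMI stands for 1 molecule. MT-CO2 (cytochrome c oxidase) was highest with 15292 CPM, followed by the nuclear noncoding RNA MALAT1 with 12628. MT-CO3 had 10284 CPM, MT-ATP6 8234, MT-CO1 7267 and MT-CYB 4533. Among ribosomal protein genes, RPS2 had 5872 CPM, RPLP1 4301, RPS19 3429, RPL10 3297 and RPL8 3237. The 100 highest genes of all kinds took 27.1% of the UMIs.

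Outside these families the actins ACTB and ACTG1 followed MALAT1, with 5487 and 5189 CPM. ACTB and ACTG1 are close in sequence, so reads shared by both may be lost or split. EEF1A1, the elongation factor that brings tRNA to the ribosome, had 4339 CPM. The ferritin chains FTH1 and FTL, which store iron, had 3980 and 2616 CPM. NEAT1, the noncoding scaffold of paraspeckles, had 3875 CPM. The actin-binding thymosins TMSB10 and TMSB4X were at 3816 and 2612 CPM, and tropomyosin TPM1 at 2478. MT2A, a metallothionein that binds zinc and copper, had 3039 CPM. VIM ranked among these genes with 2687 CPM. Also among the 20 highest were NME2, ANXA2, GAPDH, PTMA, TPT1, LGALS1 and MYL6, between 1971 and 2438 CPM. Together the 20 highest took 6.997% of the UMIs. LGALS1, a galectin, was at 1.89 and 2.13 times the control at 10 mGy and 100 mGy and 0.97 at 1 Gy. Others of the 20 moved there too. MT2A was at 1.80 and 1.46, TMSB10 at 1.48 and 1.79 and MYL6 at 1.59 and 1.71, whereas MALAT1 was at 0.63 and 0.59. At 10 mGy and 100 mGy, 14.3% and 13% of 8742 genes with at least 10 CPM were over 1.2-fold higher. Over 1.2-fold lower were 54.4% and 60.5%. With 1 library per dose, library and dose cannot be told apart.

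The labelled cell type was then checked against its markers. All 4 genes that mark the cells were present. VIM was found in every one of the 8998 cells, KRT7 in 99.7%, KRT8 in 98.2% and KRT18 in 97.3%. KRT7 had 643 CPM (639.8 to 646.7), KRT8 273 CPM (270.4 to 274.9) and KRT18 236 CPM (233.6 to 237.8). VIM, with 2687 CPM, was thus over 4 times as high as the highest keratin. KRT8 and KRT18 have many pseudogenes, and reads that match those too may be missing from these levels.

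Of 26 epithelial genes, 14 had at least 10 CPM. Of all 36601 genes, 8742 did, sex-linked marker genes not counted. Besides the keratins, these included the tight junction scaffold TJP1 with 221 CPM and the desmosomal plaque protein DSP with 186. OCLN and CLDN1, membrane proteins of tight junctions, had 23.4 and 19.6 CPM. E-cadherin (CDH1) and some other genes of the epithelial programme were low or at 0. CDH1 had 7 UMIs in all, 0.0336 CPM (0.0135 to 0.0693). ESRP1, a splicing factor of epithelia, had 1 UMI, and GRHL2, a transcription factor that keeps epithelial genes on, had 0 of 208270532 UMIs, which allows up to 0.0144 CPM by a limit of 3 counts. EPCAM had 0.903 CPM and KRT19 1.72 CPM. Other genes of the desmosomal plaque were far lower than DSP, with JUP at 10.99 CPM, PKP2 at 10.23 and PKP3 at 9.23. The label of epithelial cells is thus met by KRT7, KRT8, KRT18, TJP1 and DSP, and not by KRT19, EPCAM, CDH1, ESRP1 or GRHL2. Whether the genes that meet it are specific to epithelium or to bronchus was not tested, since the libraries hold no other cell type.

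Markers of the specialized airway cells were mostly absent. Of the basal cell genes, ITGA6 had 87.6 CPM, KRT17 76.0 and S100A2 52.9. The basal keratins KRT5 and KRT14 had 5 and 4 UMIs, and the basal regulator TP63 had 1. All 8 secretory genes, among them the mucin MUC5AC with 3 UMIs, were under 1 CPM. Of 7 genes of ciliated cells, 6 were under 1 CPM, and their regulator FOXJ1 had 1 UMI. The 7 genes of ionocytes and neuroendocrine cells were under 1 CPM, 5 of them at 0. NKX2-1, the regulator of lung identity, had 3 UMIs, whereas FOXA1, a transcription factor of endoderm, had 9.17 CPM. Markers of blood and vessel cells were at or near 0, except 1. Of the immune list PTPRC (CD45) had 9 UMIs, and CD68, a lysosomal gene that other cells use too, had 10.8 CPM. The 5 endothelial genes summed to 0.595 CPM and the 4 erythroid genes to 0.0432. The libraries hold no other cell type in which the level of free RNA could be read.

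Genes of the mesenchymal programme were high. Of 28 such genes, 18 had at least 10 CPM, and their sum was 8966 CPM, against 1759 for the 26 epithelial genes. FN1 (fibronectin) had 1541 CPM, the actin cross-linker TAGLN 1090, THY1 366, the matrix protein TGFBI 348 and SPARC 228. CDH2 had 183 CPM and was detected in 95.02% of the cells, in contrast to CDH1. The transcription factors that repress CDH1 were expressed, with ZEB2 at 61.0 CPM, SNAI2 at 41.6, ZEB1 at 37.9, TWIST2 at 22.8 and TWIST1 at 19.2. SNAI1 had 4.31 CPM. Other genes of fibroblasts and smooth muscle were split. The collagen chains COL5A1 and COL6A1 had 79.1 CPM in 75.9% of the cells and 50.3 CPM in 61.6%, and the receptor PDGFRB 7.59 CPM. COL1A2 had 24 UMIs in all, PDGFRA 24, DCN 14, COL3A1 6 and LUM 4, and ACTA2 of smooth muscle had 2.42 CPM. COL1A1 stood apart from COL1A2 with 25.5 CPM in 31.2% of the cells, although both chains make up type I collagen.

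**Figure D1:**
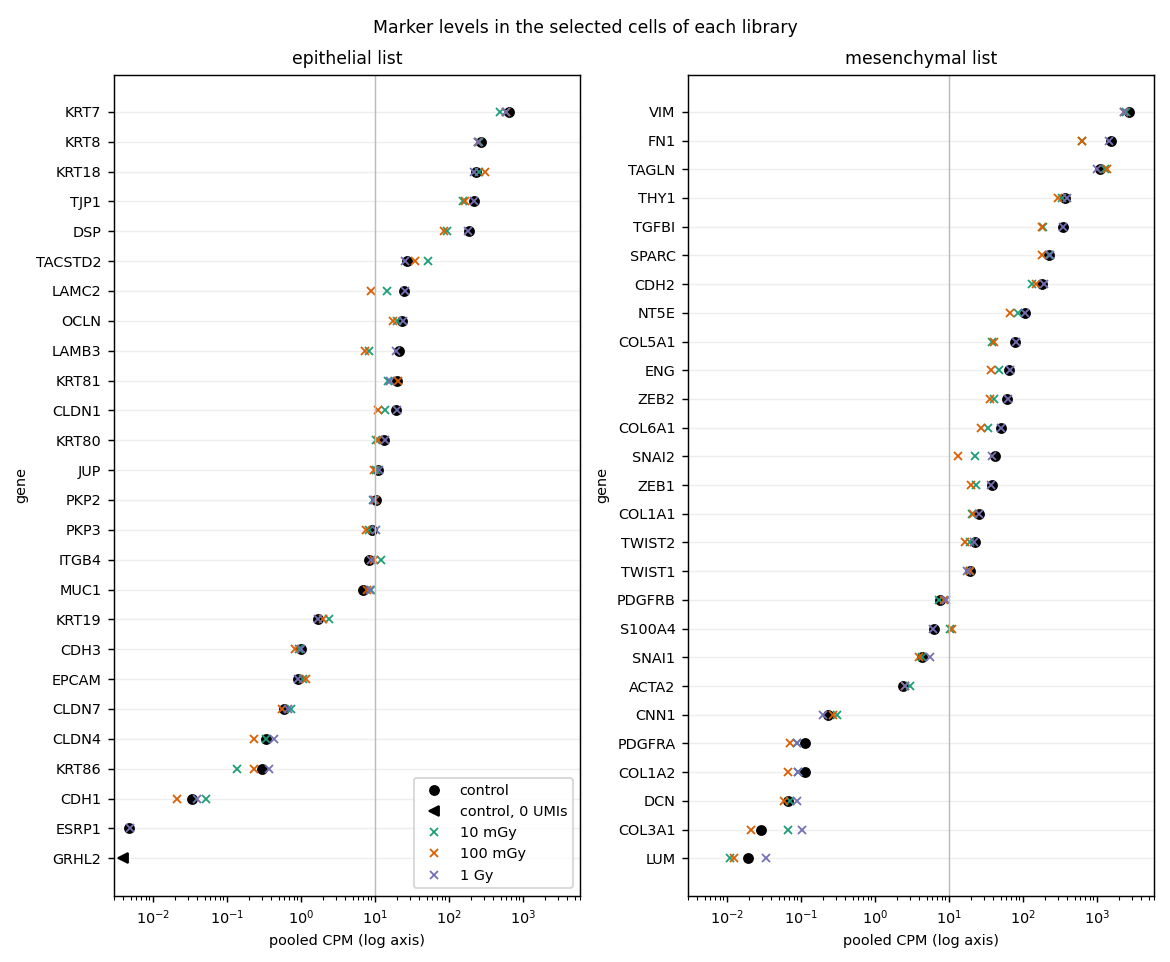
Pooled CPM on a log axis for the 26 epithelial (left) and the 28 mesenchymal genes less 1 (right) in the selected cells of each library; black circles are the control, coloured crosses the irradiated libraries, the triangle a gene with 0 UMIs in the control, and the grey line 10 CPM. The order from KRT7 with 643 CPM down to CDH1 with 0.0336 CPM covers over 4 powers of 10, far more than the gaps between libraries.

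The same markers were read in the 3 libraries that the rule did not use. KRT18 had 236 CPM in the control and 257, 306 and 218 CPM in the libraries of 10 mGy, 100 mGy and 1 Gy. KRT8 had 273, 254, 249 and 246 CPM in the same order. KRT7 had 643, 499, 590 and 592 CPM, and VIM 2687, 2498, 2339 and 2315. CDH1 had between 5 and 14 UMIs in each of them. Of the 32 epithelial and mesenchymal genes with at least 10 CPM, 20 were over 1.2-fold lower and 1 higher at 10 mGy, where 54.4% and 14.3% of all 8742 genes of at least 10 CPM were. At 100 mGy, 22 were lower and 3 higher, against 60.5% and 13% of all genes. At 1 Gy, 1 was lower and 0 higher, against 0.949% and 1.2%. These shares sit on a shift of the median gene to 0.801 times the control at 10 mGy and 0.754 at 100 mGy (log2 ratios of -0.32 and -0.41), where ribosomal protein genes took a larger share. Scaled to the median gene, 11 markers were lower and 5 higher at 10 mGy (26.7% and 30.4% of all genes), and 14 lower and 8 higher at 100 mGy (28.6% and 31.7%). FN1 was lower under both scalings, at 0.407 and 0.415 times the control in CPM and 0.508 and 0.550 after scaling. VIM turned with the scaling, from 0.930 to 1.16 at 10 mGy and from 0.870 to 1.15 at 100 mGy, KRT8 from 0.932 to 1.16 and from 0.913 to 1.21, and KRT7 at 100 mGy from 0.917 to 1.22. KRT18 was above the control under both scalings, at 1.09 and 1.30 in CPM and 1.36 and 1.72 after scaling. Its CPM ratio at 10 mGy was under the threshold of 1.2-fold. Library and dose cannot be told apart here.

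Gene expression varied between the control cells beyond counting noise. For each of 3832 genes with at least 50 CPM, which is about 1 UMI in the median cell, the excess dispersion was taken. It is the standard deviation over the mean of the share of a gene in the UMIs of a cell, with the counting variance of every cell subtracted. The median gene had 20.9%, and 149 genes (3.89%) had at least 50%. The most variable genes were MDM2 with 272%, KRT17 with 162%, ANKRD1 with 150%, KRTAP2-3 with 128%, G0S2 with 126% and AURKA with 103%. These were the only 6 of the 3832 genes with at least 100%.

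The 25 most variable genes fell into a few kinds. A set acts in mitosis, namely AURKA, CCNB1 (93.4%), HMMR (90.04%), PLK1 (86.0%), FAM83D (85.4%), DEPDC1 (84.0%), UBE2C (83.8%) and TOP2A (79.1%). Of the 25 genes, 6 were on the G2/M list, which held 48 of the 3832 genes. AURKA and PLK1 are mitotic kinases, CCNB1 is the cyclin that drives entry into mitosis, and UBE2C marks it for degradation. The linker histones HIST1H1D and HIST1H1B had 83.5% and 79.4%. KLF2 (90.1%) is a transcription factor, CCND1 (85.7%) is the cyclin of G1, and TXNIP (79.4%) inhibits thioredoxin. ANKRD1 is a target of the YAP coactivator, KRT17 a keratin of basal and stressed epithelium, and KRTAP2-3 a keratin-associated protein. HMOX1 (90.4%) degrades haem, STC2 (91.2%) is a secreted glycoprotein, CPA4 (90.7%) a carboxypeptidase, RGS4 (91.8%) a regulator of G protein signals and PLAT (80.9%) the tissue plasminogen activator. ARL6IP1 (90.7%) sits in the endoplasmic reticulum, and KCNQ1OT1 (79.3%) is a noncoding RNA. The gene of rank 26, just outside, had 78.8%.

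How these genes were spread over cells differed. KRT17 had a median of 1 UMI and a highest value of 59, was at 0 in 43.0% of the cells, and 50% of its UMIs lay in 8.94% of the cells. ANKRD1 had 50% of its UMIs in 10.3% of the cells, with at most 45. G0S2, an inhibitor of lipolysis, had a median of 3 UMIs, a 99th percentile of 40 and at most 110. AURKA had a median of 3 and 50% of its UMIs in 14.2% of the cells. VIM in contrast had a median of 57 and 50% of its UMIs in 32.7% of the cells.

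At the other end, for 7 genes, namely MFSD10, PRCC, TMEM59, BAG6, PMM1, OSBP and TSG101, the variance did not exceed the counting variance. EML4, HSD17B12 and ZMPSTE24 completed the 10 lowest, EML4 with 2.65% and HSD17B12 with 2.81%. All 10 had at most 1.69 UMIs per cell, and in the other libraries their dispersions ranged from 8.77% to 31.1%, so the low values were not seen again there. Ribosomal protein genes had a median of 18.7% (12.4% to 37.5%, 85 genes) and mitochondrially encoded genes 26.1% (22.9% to 46.0%, 13 genes). All 13 histone genes had at least 57.3%, with a median of 67.9%. Among the markers, VIM had 23.1%, KRT18 34.5%, KRT8 39.7% and KRT7 55.8%. Of the 20 highest genes, ACTB (16.5%) and EEF1A1 (13.1%) were among the more even, and NEAT1 (48.2%) and MALAT1 (41.6%) among the less even.

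**Figure D2:**
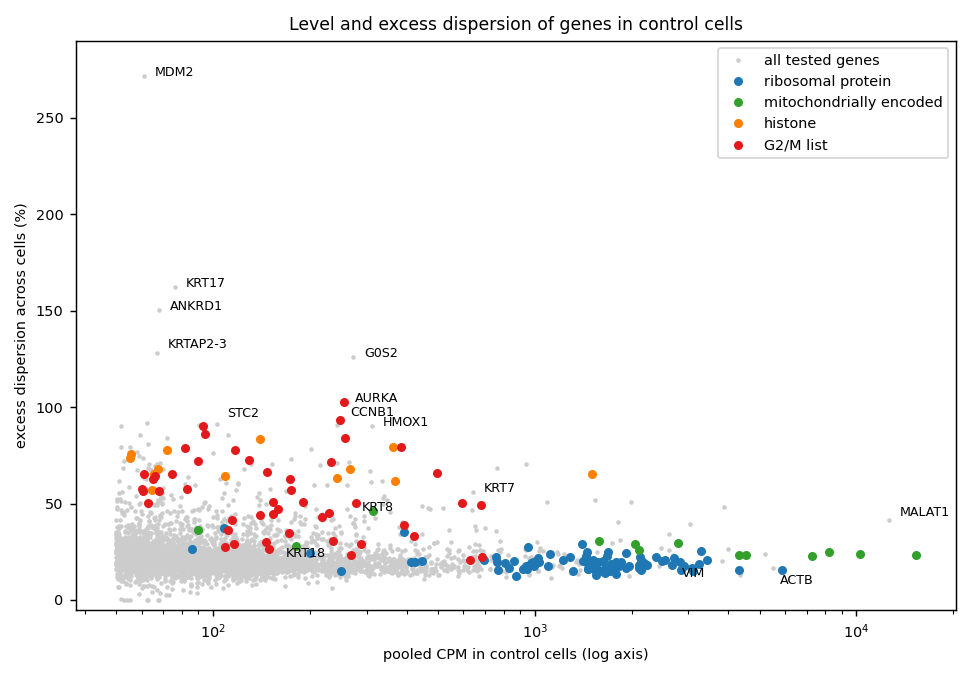
Excess dispersion across the 8998 control cells (percent, linear axis) against pooled CPM (log axis) for 3832 genes; colours mark gene families and the G2/M list, and named genes are labelled. MDM2 stands alone at 272%, histone genes lie at 57.3% or above, and ribosomal protein genes lie between 12.4% and 37.5%.

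The same genes were read in the libraries that did not choose them. MDM2 had 233%, 276% and 229% in the libraries of 10 mGy, 100 mGy and 1 Gy. KRT17 had 142%, 155% and 179%, and ANKRD1 135%, 160% and 157%. Values further from the control included those of KRTAP2-3, with 152% at 10 mGy and 173% at 100 mGy, HIST1H1D with 102% and 108%, HIST1H1B with 105% and 102%, and CCND1 with 102% and 113%. Their levels were lower there. KRTAP2-3 had 41.2 and 30.9 CPM against 67.0 in the control, and HIST1H1D 98.7 and 98.0 against 140. HIST1H1B had 129 and 153 CPM against 362, and CCND1 53.7 and 49.8 against 111. Of the 25 genes, 18, 18 and 23 were among the 25 largest of the same 3832 genes in these 3 libraries. With the highest 1% of cells of each gene left out, 81 genes had at least 50%, and MDM2 came to 20.02%.

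The variability of MDM2 lay in very few cells. MDM2 encodes the ubiquitin ligase that degrades p53, and is itself switched on by p53. The median control cell had 1 MDM2 UMI and 34.0% of cells had 0, whereas the highest had 151. With a limit chosen after the values were seen, 33 of 8998 cells (0.367%, 0.253 to 0.515) had at least 10 UMIs, and these held 12.1% of all MDM2 UMIs. Near the limit, 29 cells had 7 to 9 UMIs and 3 had 10 to 12. The median depth of the 33 cells was 24737 UMIs, against 21697 in the other 8965. The barcode of 1 of the 33 also occurred in another library.

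In the same cells CDKN1A, the p53 target that stops the cell cycle, had 1744 CPM, against 21.0 in the others, 83.0 times as much (78.3 to 87.9). It had at least 10 UMIs in 32 of the 33 cells and in 10 of the 8965 others. GDF15, a secreted stress cytokine, had 142 CPM against 0.212, with 130 of its 174 UMIs in the 33 cells. BBC3, which promotes apoptosis, was 43.0 times as high, the antiproliferative BTG2 31.5 times, FDXR 17.0 times and TP53I3 15.1 times. GADD45A had 717 CPM against 167. Of the 23 p53 targets without MDM2, 23 were over 2 times as high, the lowest being PLK3 with 2.11 (1.48 to 2.93). Of those with at least 10 CPM, this was 17 of 17, against 3.18% of 8741 genes. AREG, a growth factor named after its values were seen, had 278 CPM against 4.49. Pooled levels do not stand for every cell of the 33. CDKN1A was found in all 33, but GDF15 in 22, BBC3 in 20 and AREG in 17. HIST1H1B had 119 CPM against 363. The summed G2/M list had 8199 CPM against 10508, and the summed S phase list 4366 against 3747. Other lists also differed, with 6133 CPM against 7779 for heat shock, 7605 against 8972 for mesenchymal and 1890 against 1758 for epithelial genes.

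**Figure D3:**
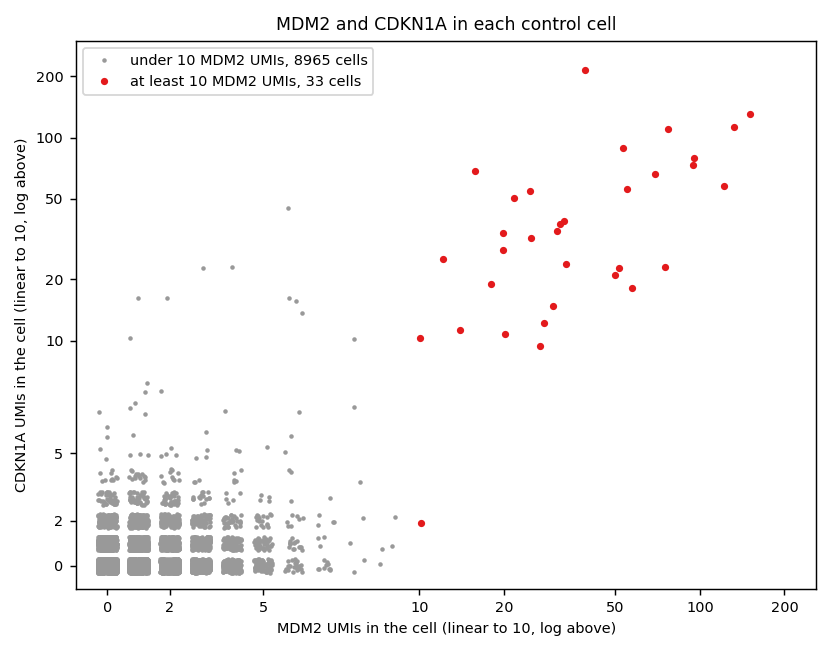
UMIs of CDKN1A against UMIs of MDM2 in each of the 8998 control cells, with a random shift under 0.5 UMIs to separate points, on axes that are linear up to 10 and logarithmic above; red marks cells with at least 10 MDM2 UMIs. In the 33 red cells CDKN1A reaches at least 10 UMIs in 32, and most other cells have 0 to 2 of each.

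**Figure D4:**
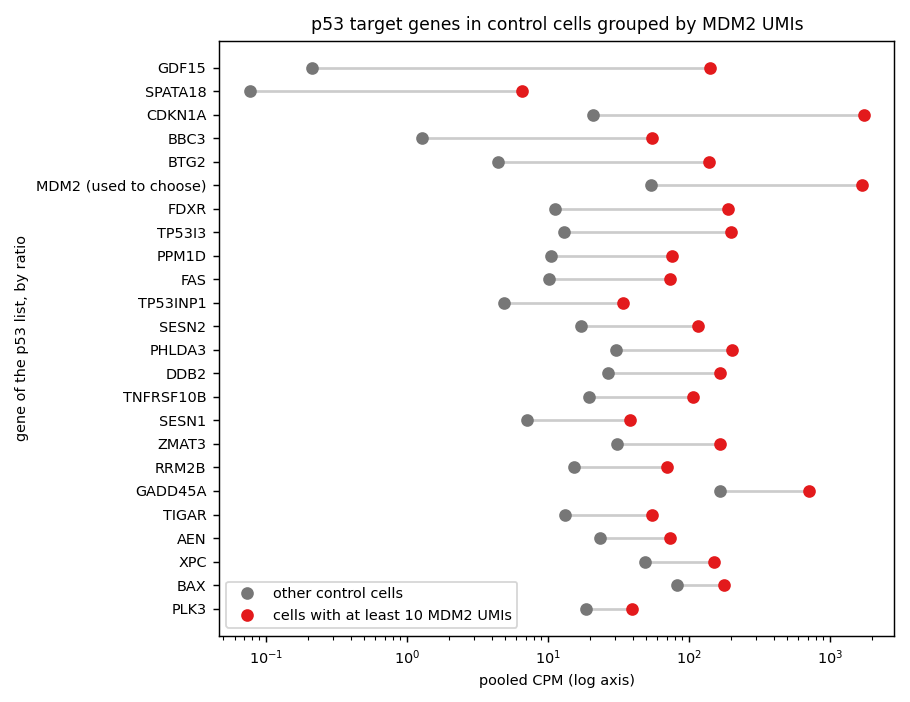
Pooled CPM (log axis) of the 24 genes of the p53 list in the 33 control cells with at least 10 MDM2 UMIs (red) and in the other 8965 (grey), ordered by ratio. Every red point lies to the right of its grey point, from PLK3 at 2.11 times to GDF15, which had 0.212 CPM in the other cells; MDM2 itself was used to choose the cells.

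Cells of this kind were present in each library, with 26 at 10 mGy (0.208%), 35 at 100 mGy (0.246%) and 33 at 1 Gy (0.288%), under the same limit of 10 UMIs at lower depth. In them CDKN1A had 1765, 1580 and 1692 CPM, and 22, 22 and 21 of the 23 targets were over 2 times as high. Of the 17 targets with at least 10 CPM in the control these were 16, 16 and 15, against 2.77%, 3.11% and 1.9% of 8741 genes. The summed S phase list was 0.933, 1.03 and 0.848 times that of the other cells in these libraries, against 1.17 in the control, and the summed G2/M list 0.689, 0.753 and 0.907 times, against 0.780 in the control. Among the cells under the MDM2 limit, 31, 27 and 15 had at least 10 CDKN1A UMIs in these libraries, against 10 in the control. MDM2 itself had 27.6, 26.7 and 51.4 CPM in the cells under the limit, against 54.0 in the control. The shares under a fixed limit are therefore not directly comparable. Over all control cells, CDKN1A had 28.6 CPM and at least 1 UMI in 33.8%.

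Genes that vary together were described by Pearson's r of log2(1 + UMIs per 10000) across the 8998 cells. Counting noise pulls r towards 0, and all pairs share the same cells, library and depth. Over 7340196 pairs the median r was 0.01. Outside pairs within the mitochondrial, ribosomal protein and histone families, 66 pairs (0.0009%) had r of at least 0.5, and they joined 32 genes.

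Most of these pairs were made of mitotic genes. AURKA with CENPF had the highest r outside the 3 families, 0.66, then AURKA with TPX2 (0.65), CENPF with TPX2 (0.64), AURKA with CCNB1 (0.63) and ASPM with CENPF (0.61). TPX2 activates AURKA on the spindle, CENPF binds kinetochores and ASPM acts at spindle poles. AURKA also paired with ARL6IP1 (0.60), PLK1 (0.60), ASPM (0.59), CKS2 (0.59) and CENPE (0.56), and took part in 20 of the 66 pairs. CCNB1 paired with DLGAP5 and CENPF (0.58 each), PLK1 (0.57) and HMMR (0.56). MKI67, the proliferation antigen, paired with CENPF and ASPM (0.58 each) and with TPX2 (0.57). ASPM with TPX2 (0.58), TOP2A with UBE2C (0.57) and CENPF with ARL6IP1 (0.56) made up the rest of the 20 highest. In 41 of the 66 pairs both genes belonged to the list of 56 G2/M genes. Of that list, 48 genes reached 50 CPM, their 1128 pairs had a median r of 0.26, and 28 of the 48 had a dispersion of at least 50%, against 3.89% of all genes. When the variance of counting was subtracted, r of AURKA with CENPF was 0.87 and of AURKA with PLK1 0.92.

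Promoter sequence was compared for these genes. It is the same whatever the cells express, so the shares for the gene lists describe the lists and not this library. Many promoters of G2/M genes hold the cell cycle homology region, TTTGAA, through which a repressor complex silences them in resting cells and early phases, together with CCAAT boxes, which bind the factor NF-Y. RefSeq promoters were read as the 250 bases before the start site, on GRCh38.p14, and searched for TTTGAA and CCAAT on both strands (TTCAAA and ATTGG on the other strand, overlaps counted). TTTGAA was found in 25 of 47 matched G2/M promoters (53.2%), in 1 of 33 matched S phase promoters (3.03%) and in 13.6% of all 27305. CCAAT was found in 70.2%, 66.7% and 33.04%. Both motifs were found in 46.8% of the G2/M promoters and in 4.85% of all. Of the 14 genes in the 20 highest pairs, 11 had an entry, all but AURKA, TPX2 and UBE2C, and 7 of these (63.6%) held both motifs. The promoters of PLK1 and ASPM, genes of those pairs, and of HMMR, which has TTTGAA in tandem, are shown next to that of PCNA, an S phase gene that had CCAAT alone. Capitals mark both motifs on either strand, and each sequence runs 5′ to 3′ towards the start site. They lie at chr16:23678639-23678888 (plus strand), chr1:197146670-197146919 (minus), chr5:163460382-163460631 (plus) and chr20:5126623-5126872 (minus). A match is a description, not a binding site.
PLK1: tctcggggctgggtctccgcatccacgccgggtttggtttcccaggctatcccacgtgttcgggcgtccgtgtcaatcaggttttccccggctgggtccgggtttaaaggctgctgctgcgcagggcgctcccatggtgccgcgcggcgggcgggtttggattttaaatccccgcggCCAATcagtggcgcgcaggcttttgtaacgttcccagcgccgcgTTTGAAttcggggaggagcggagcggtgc
ASPM: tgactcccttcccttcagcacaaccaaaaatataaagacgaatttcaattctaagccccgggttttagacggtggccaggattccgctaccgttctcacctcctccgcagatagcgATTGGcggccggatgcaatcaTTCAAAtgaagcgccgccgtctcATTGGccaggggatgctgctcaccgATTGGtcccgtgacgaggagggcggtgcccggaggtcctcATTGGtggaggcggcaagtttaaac
HMMR: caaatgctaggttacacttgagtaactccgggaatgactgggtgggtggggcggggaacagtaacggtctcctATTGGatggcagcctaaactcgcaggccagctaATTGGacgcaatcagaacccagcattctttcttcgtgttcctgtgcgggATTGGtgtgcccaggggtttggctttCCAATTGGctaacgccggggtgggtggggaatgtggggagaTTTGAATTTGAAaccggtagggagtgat
PCNA: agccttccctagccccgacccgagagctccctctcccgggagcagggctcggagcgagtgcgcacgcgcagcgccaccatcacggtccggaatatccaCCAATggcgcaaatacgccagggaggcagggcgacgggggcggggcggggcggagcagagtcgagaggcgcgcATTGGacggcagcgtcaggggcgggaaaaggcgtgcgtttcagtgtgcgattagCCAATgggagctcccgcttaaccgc

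Several of the lowest pairs set a gene of S phase against a gene of mitosis. The lowest r was -0.43, between CCNB1 and the linker histone HIST1H1B, followed by -0.42 for CCNB1 with HIST1H4C and -0.40 for CCNB1 with HIST2H2AC. PTTG1 (securin), which inhibits separase until sister chromatids part, had -0.40 with HIST1H4C and -0.38 with HIST1H1B. MCM3, part of the replicative helicase, had -0.38 with AURKA. Not every mitotic gene ran against the histones. HIST1H4C had -0.23 with AURKA and -0.14 with CENPF, but 0.13 with MKI67 and 0.07 with UBE2C and with TOP2A. HIST1H1B had -0.26 with AURKA and 0.10 with MKI67. Of 1152 pairs of an S phase and a G2/M gene, 1023 (88.8%) had a negative r, with a median of -0.08, where 37.5% of all pairs were negative. Histone genes ran with each other, with a median r of 0.42 over 78 pairs and 0.76 for HIST1H4C with HIST1H1B. Histone genes of the same class can be close copies of each other, and most histone mRNA has no poly(A) tail, so their counts are uncertain. In 1 cell of 89898 UMIs, HIST1H4C alone had 1375 UMIs, where the next cell had 185. The S phase list had a median r of 0.09 over 276 pairs, where the 99th percentile of all pairs was 0.08, and the G2/M list, as given above, 0.26.

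The other 4 of the 10 lowest pairs each held a ribosomal protein gene or MYL6. MYL6 and RPS14 had r of -0.39 and -0.38 with MT-ND2, and RPL8 had -0.38 with MALAT1 and with MYH9. Mitochondrially encoded genes ran together, with a median r of 0.56 over 78 pairs (0.11 to 0.87). Ribosomal protein genes had a median of 0.21 over 3570 pairs (-0.12 to 0.58).

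Outside the group linked to AURKA, the highest pairs were of cytoskeletal, ferritin, nuclear and ribosome-bound genes. These were picked after the values were seen. TAGLN with MYL9, of the contractile cytoskeleton, had r of 0.56, PLEC with MYH9 0.50 and ACTB with ACTG1 0.47. The ferritin chains FTH1 and FTL had 0.54. NEAT1 with MALAT1, both nuclear, had 0.53, and MALAT1 with MYH9 0.46. RPS14 with RACK1, a ribosome-bound scaffold, had 0.50. Small groups at r of at least 0.3 were CYP51A1, MSMO1 and SQLE of cholesterol synthesis, FAM111B, MCM3 and PCNA of replication, HSP90AA1 with HSP90AB1, RPLP1 with SERF2, and the chaperones CALR and HSPA5 of the endoplasmic reticulum.

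**Figure D5:**
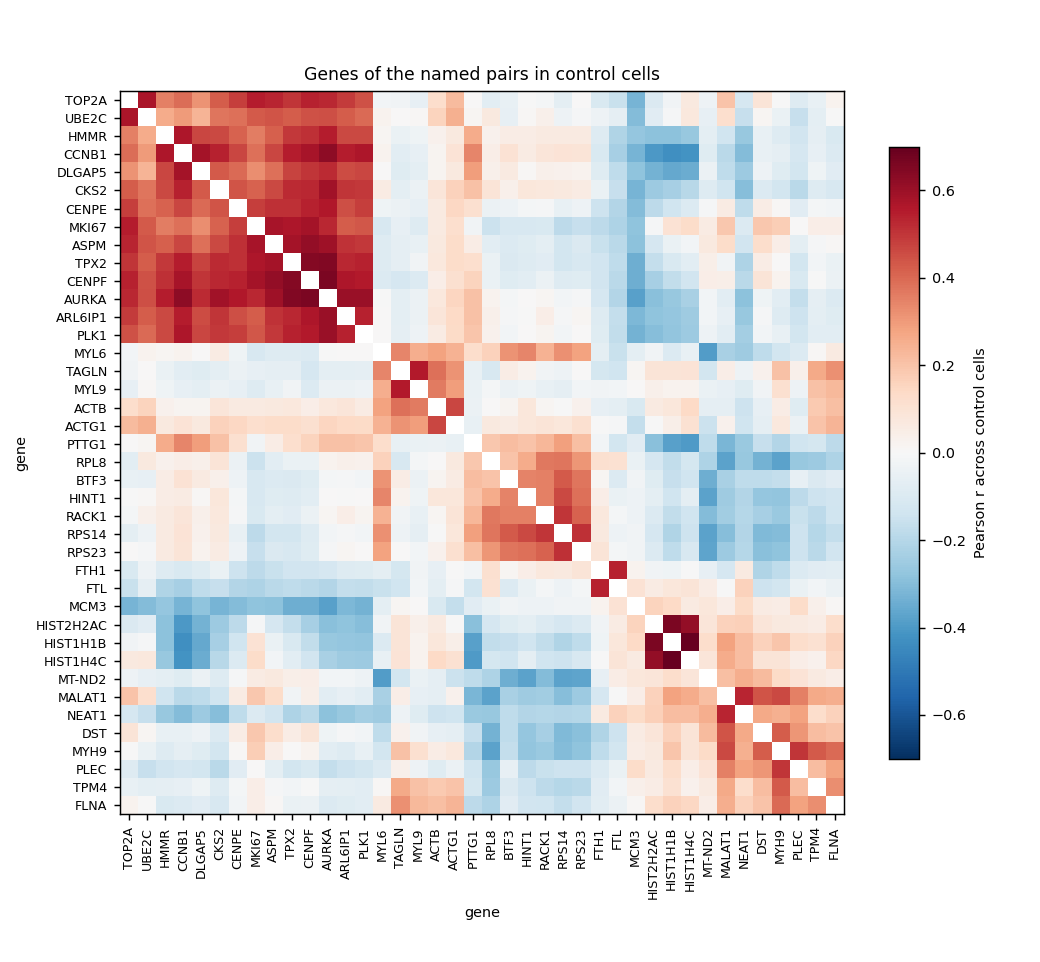
Pearson's r across the 8998 control cells for the genes of the 20 highest and 10 lowest pairs and of the highest pairs outside the mitotic group, ordered by average linkage; red is positive and blue negative, and the diagonal is blank. A block of mitotic genes around AURKA reaches r of 0.66, and the histone genes HIST1H4C, HIST1H1B and HIST2H2AC run against CCNB1 (-0.43 to -0.40).

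The keratin genes varied together and weakly against vimentin. KRT8 had r of 0.36 with KRT7 and 0.26 with KRT18, and KRT7 had 0.29 with KRT18. With the variance of counting subtracted these were 0.66, 0.73 and 0.60. VIM had -0.14 with KRT8, -0.11 with KRT18 and -0.07 with KRT7. Among the closest partners of VIM were RALA (0.29), LGALS1 (0.28) and TPM1 (0.25), and of KRT7 after KRT8 they were IGFBP4 (0.34), MYL6 (0.34) and TGFBI (0.33). KRT17 ran with TAGLN (0.30) and KRT7 (0.28). G0S2 had 0.29 with GREM1, a BMP antagonist, and -0.29 with MKI67. HMOX1 had 0.34 with FTH1. Of the pairs of KRT7, KRT8, KRT18 and VIM, KRT7 with VIM was not stable, with 0.05 at 10 mGy and 0.02 at 100 mGy.

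Within 3 groups of equal size by UMI count, the mean r was 0.64 for AURKA with CENPF, -0.44 for CCNB1 with HIST1H1B and 0.36 for KRT7 with KRT8. Of the 66 pairs, 66, 65 and 66 had r of at least 0.3 at 10 mGy, 100 mGy and 1 Gy, and 17, 11 and 22 reached 0.5 there at lower depth. With cells thinned to 5000 UMIs, 0 pairs reached 0.5. With a minimum of 2000 UMIs per barcode, 8 did.

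Levels also moved with the UMI count of a cell. The G2/M list summed to 9217 CPM in the 3000 cells of lowest UMI count, 9518 in the middle group and 11732 in the highest. Histone genes summed to 3566, 4591 and 3600 CPM, and were highest in the middle group. MALAT1 had 10195, 12501 and 13818 CPM. KRT7 had 679, 647 and 624 CPM and VIM 2641, 2695 and 2703. Cells of high UMI count may be doublets, which were kept and not called.

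The remaining gene lists describe the state of the culture. Their counts of genes with a dispersion of at least 50% are to be read against 3.89% of all 3832 genes. Counts of genes with at least 10 CPM are to be read against 8742 of all 36601 genes. Where a gene of low level is named below, it was picked after its value was seen. Of 15 heat shock genes, 15 had at least 10 CPM, led by the chaperones HSP90AA1 with 1738 CPM and HSP90AB1 with 1615, and 0 of 13 had a dispersion of at least 50%, near the share of all genes. The inducible HSPA1A and HSPA1B, close copies of each other, had 26.2 and 13.8 CPM. Of the glycolysis genes, GAPDH had 2208 CPM, ENO1 1680 and PKM 1026, and their median dispersion over 12 genes was 19.4%, close to the 20.9% of all genes. Targets of NRF2, the regulator of the oxidative stress response, were led after the ferritins by TXNRD1 with 549 CPM, while AKR1C1 and AKR1B10 were under 1 CPM. Matricellular and YAP target genes summed to 10123 CPM over 17 genes, with THBS1 at 765 CPM and CCN1 at 757 besides TPM1 and TAGLN, and 8 of 16 had a dispersion of at least 50%, against 3.89% of all genes. Of 20 immediate early genes, 16 had at least 10 CPM, with IER3 at 448 CPM, KLF6 at 387 and JUN at 276, whereas FOS had 15.4 CPM and EGR1 40.1.

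Cholesterol genes were all above 10 CPM, with SQLE at 232 CPM and CYP51A1 at 194, and 5 of 12 had a dispersion of at least 50%, against 3.89% of all genes, INSIG1 with 68.6% the most. Of 18 interferon-stimulated genes, 7 had at least 10 CPM, led by IFITM3 with 165 CPM and IFITM2 with 118. Of 16 inflammatory genes, 9 had at least 10 CPM, led by the NF-kappaB inhibitor NFKBIA with 109.5 CPM and SOD2 with 68.0, and the cytokine IL6 had 2.49. Of 17 genes of the ATF4 amino acid response, 12 had at least 10 CPM, led by the amino acid transporter chains SLC7A5 with 308 CPM and SLC3A2 with 238, whereas asparagine synthetase ASNS had 0.418. After MT2A, the metallothionein MT1E had 262 CPM, and MT1G had 0.197. Of 8 S100 genes, S100A6 had 1846 CPM and S100A10 1013. Of 24 p53 targets, 18 had at least 10 CPM, led by GADD45A with 169 CPM and BAX with 83.0. The S phase list summed to 3750 CPM over 43 genes, with USP1 at 274 CPM and NASP at 248, and 2 of 24 had a dispersion of at least 50%, near the 3.89% of all genes. The G2/M list summed to 10498 CPM over 56 genes, with JPT1 at 685 CPM and MKI67 at 682.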

How the data were processed

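Libraries of BEAS-2B cells were prepared by the study with the Chromium 3′ v3 kit, 1 library per dose. The authors deposited a matrix of raw UMI counts for each library, over 36601 genes. Per the file headers they were made with Cell Ranger 7.0.1, and the submitters' processing notes add STAR and GRCh37. The annotation and the treatment of intronic reads are not given in the sources used. The study states no filter on cells. Total counts of the selected cells ranged from 204857725 to 269750978 per library, which makes counting error small, and the precision is limited by the lack of replicates.

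From the counts, CPM was computed over all selected cells, with exact Poisson intervals, and shares of cells with exact binomial ones. Ratios between libraries used genes with at least 10 CPM and a threshold of 1.2-fold. Excess dispersion (the variance over cells of a gene's share of UMIs minus the mean binomial variance of that share, over the squared mean, as a square root) and Pearson's r of log2(1 + UMIs per 10000) used genes with at least 50 CPM. A limit for a count of 0 is 3 counts of the total. Intervals and limits cover counting error only. Sex-linked marker genes were left out, and 20 rows that share a symbol are known by identifier. Dispersion and r were tested on simulated data. Python 3.11.15, numpy 2.4.6, scipy 1.17.1 and pandas 2.3.3 were used.

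Named were the 20 highest genes and the 5 highest of the ribosomal protein and mitochondrial families, all marker genes by value or count, the 25 largest and 10 smallest dispersions, the 20 highest and 10 lowest r, and list members of highest CPM or dispersion. Of the genes so chosen or compared, 3 are not reported here. The members and the lists were chosen with earlier results of these data known. The limit of 10 MDM2 UMIs and pairs outside the mitotic group were chosen from the values. Alternatives were other limits on UMIs and mitochondrially encoded genes, other totals, floors and thresholds, thinning, rank correlation and weighting of cells.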

Additional observations from a re-analysis of the deposited data

How the results depend on the processing

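Each comparison rests on 1 library per dose, so no spread between cultures is known. No paired analysis was possible because each dose has 1 library. Cells were selected again with at least 2000 or 10000 UMIs, with at most 5% or 20% of mitochondrially encoded UMIs, and without barcodes above 3 times the median, which were 16. The number of genes with at least 50 CPM, of markers with at least 10 CPM and of genes with a dispersion of at least 50% stayed within 1.5 times the reported value under these. Where an alternative does not itself have fewer cells, UMIs or genes, the cause was not tested.

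The limit of 5% kept 1569 control cells. It gave 116 pairs with r of at least 0.5 and 1086 with -0.3 or lower, in place of 66 and 109, and 11 cells with at least 10 MDM2 UMIs, 0.701% of its cells in place of 0.367%. With it, r of KRT7 and VIM turned from -0.07 to 0.0132, and 216 genes were over 1.2-fold higher and 152 lower at 1 Gy. A minimum of 2000 UMIs gave 8 and 14 pairs, and thinning 0 and 0. Spearman's rho gave 42 pairs of at least 0.5, and a total without ribosomal protein and mitochondrially encoded genes 69 of -0.3 or lower. A limit of 7 MDM2 UMIs gave 62 cells, where the limits on MDM2 and the subtraction of counting variance from r were chosen after seeing the data. Genes with a dispersion of at least 50% numbered 81 without the highest 1% of cells, 311 at a floor of 20 CPM and 63 at 100 CPM, and 6 and 11 of the 25 most variable genes were among the 25 largest at these floors. Scaled to the median ratio, 2656 genes were higher and 2334 lower at 10 mGy, and 2772 and 2499 at 100 mGy. Over 1.5-fold, 387 were higher and 2312 lower at 10 mGy, 403 and 3092 at 100 mGy, and 1 and 2 at 1 Gy. CPM was compared under other cell limits and averaging for the genes of highest CPM, KRT7, KRT8, KRT18, FN1, CDH2, KRT17 and TJP1. It moved by at most 1.49-fold, for MT-ATP6 at the limit of 5%. Other named genes are not covered by this value.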

Other observations

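In the 33 control cells with at least 10 MDM2 UMIs, genes outside the p53 list were also apart from the other 8965 cells, by a choice made after the values were seen. The stress-induced transcription factor ATF3 had 115 CPM against 14.6, the small nucleolar RNA host SNHG12 139 against 19.3 and GAS5 558 against 116, the tetraspanin CD82 114 against 16.7, and TNFAIP3, an inhibitor of NF-kappaB, 117 against 18.2. The tight junction gene CLDN1 had 98.6 CPM against 19.3. The ribosomal protein paralogue RPS27L had 1143 CPM against 388. The cell with 1375 HIST1H4C UMIs is 1 of the 33 and had 5 UMIs of HIST1H1B.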
